A study of Manihot esculenta with 9 samples.

Results

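Plant cells read changes in cytosolic calcium through proteins that bind the ion, and 134 of the 33033 genes in the deposited cassava (*Manihot esculenta*) table encode such sensors or the proteins they act on. The members are all genes whose description in the table names calcium-dependent protein kinase, calmodulin-domain protein kinase, CBL-interacting, calcineurin B, calmodulin or CDPK-related, which is a rule that uses the text of the descriptions and no expression value. By description they fall into 6 calcineurin B-like sensors (CBL), 19 CBL-interacting protein kinases (CIPK), 32 calcium-dependent protein kinases (CDPK), 8 CDPK-related kinases (CRK), 26 calmodulins and calmodulin-like proteins (CML), 41 calmodulin-binding proteins and 2 genes described as calcineurin B subunit-related. The descriptions come from the nearest Arabidopsis gene, so a name such as CIPK25 below means a cassava gene whose closest match carries that description, and its number is the one in the description. The 134 members had 71 different nearest Arabidopsis genes, and many names therefore cover several cassava copies.

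The libraries are RNA-seq of mature leaves from wild-type seedlings raised from stem cuttings in MS medium, aged 60 days at treatment. For 48 h they stayed in MS medium alone (MS control), in medium brought to 50 μmol/L ABA, or in medium brought to 7% PEG6000, with 3 libraries in each group. ABA is the hormone by which plants shut their stomata when water is short, and PEG is an osmotic agent that holds water back from the roots. The study calls them biological replicates without saying whether each is a separate plant, and p-values measure the spread between these libraries.

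A CBL protein binds calcium with EF-hand motifs and then recruits a CIPK, which phosphorylates channels and transporters. A CDPK carries its EF-hands and its kinase domain on the same chain, so it senses and phosphorylates by itself, whereas CRKs resemble CDPKs but have degenerate EF-hands. Calmodulin and the CMLs have no enzyme activity of their own and work by binding other proteins, among them the CAMTA transcription factors, IQ-motif proteins and the CBP60 family. In Arabidopsis leaves members of these families act in ABA-driven stomatal closure, potassium and sodium transport and defence.

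Total counts were 13923803 to 17108746 per library. FPKM is the authors' read count scaled to gene length and library size, and it is used here for levels. Rises and falls come from edgeR's quasi-likelihood test on the read counts, in 1 fit of all 9 libraries over the 23984 genes with enough reads for edgeR's filter, and the words rise and fall are kept for an adjusted p (Benjamini-Hochberg over these genes) under 0.05. Log2 fold changes are on edgeR's TMM scale, which sets the groups to a common bulk of genes. Its factors were 0.9797 to 0.9892 in the MS control, 0.9415 to 0.9419 under ABA and 1.076 to 1.082 under PEG. FPKM values and their sums carry no such factor, so their ratios can differ from the log2 fold changes by as much as the smaller changes below. Read counts of replicates differed somewhat more than sampling alone gives (median chi-square 0.662 to 0.843 per library pair, against 0.455), and with 3 libraries a group small changes still passed the test.

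The labels of the MS control and PEG libraries bear on every direction below. Genes for dehydrins and other late embryogenesis abundant (LEA) proteins, made by plants that lose water, fell under PEG in 16 of 20 genes tested and rose in 2, while under ABA 12 rose and 5 fell. Cyclins, which drive cell division, rose under PEG in 44 of 54 and fell in 6, while under ABA 31 rose and 6 fell. A copy of Arabidopsis HAI3 (Manes.06G158800), a protein phosphatase 2C that ABA induces, had 40.9, 38.3 and 39.5 FPKM in the MS control, 271, 264 and 269 FPKM under ABA and 2.55, 2.45 and 2.8 FPKM under PEG. Relative to ABA the LEA genes were lower in the PEG libraries in 19 of 20. Whether the labels of these 2 groups were exchanged cannot be told apart from an actual response to PEG, and directions below follow the labels.

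In mature leaves the mesophyll should dominate. Of 12 mesophyll marker genes (small subunit of Rubisco, chlorophyll-binding proteins), 11 were tested and none was without reads, and their summed level was 3776 to 4322 FPKM in the MS control, 957 to 1069 FPKM under ABA and 8332 to 8711 FPKM under PEG. Markers of dividing cells rose in 22 of 32 under ABA and in 30 of 32 under PEG, with sums of 376 to 397, 317 to 320 and 611 to 652 FPKM in the same order. Guard cell markers were sparse (5 of 12 tested, summed level 18.2 to 27.3 FPKM over the 9 libraries, 1 gene with no read), and phloem markers summed to 404 to 415, 486 to 495 and 341 to 343 FPKM. Xylem markers summed to 177 to 186, 127 to 133 and 71.9 to 74.4 FPKM and root markers to 302.7 to 309.5, 214 to 216 and 152 to 156 FPKM. Counts of genes did not follow these sums. Of 20 xylem markers tested 11 rose and 2 fell under ABA, and 7 rose and 4 fell under PEG. Of 10 root markers tested 5 rose and 1 fell under ABA, and 2 rose and 2 fell under PEG. The part of these shifts in the results below was not tested, and in whole leaves fewer cells of a type and less RNA per cell cannot be told apart.

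Of the 134 members 116 passed the filter on low counts. The 18 others (7 CDPKs, 3 CIPKs, 4 calmodulin-like and 4 calmodulin-binding genes) had 0 to 42 reads over all 9 libraries and at most 0.437 FPKM in any group, and 3 of them, all CIPKs, had no read. At least 1 FPKM in a group was reached by 111 members, and 17 had a mean of 50 FPKM or more over the 9 libraries. By summed FPKM calmodulins and CMLs stood first in the MS control with 951.5 ± 7.84 FPKM (SD, n = 3), followed by calmodulin-binding proteins with 749 ± 10.4, CDPKs with 601 ± 3.05, CIPKs with 547 ± 9.52, CBLs with 213 ± 1.56 and CRKs with 157 ± 0.895. The sum over all 134 members was 3239 ± 14.5 FPKM in the MS control, 3249 ± 7.05 FPKM under ABA and 2926 ± 18.5 FPKM under PEG.

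Under ABA 44 of the 116 members rose and 45 fell, so 76.7% were called, where 66.3% of all genes tested were. Under PEG 32 rose and 61 fell (80.2% called, against 70.7% of all genes). Rising members made up 27.6% and falling members 52.6% under PEG, against 35.6% and 35.1% of all genes tested. The excess of falls under PEG depends on the scaling: with library size alone the median of all genes tested moves to 0.14 on the log2 scale and 39 members rose and 44 fell. Most changes were small, since only 13 rises and 16 falls under ABA and 10 rises and 13 falls under PEG reached 2-fold. Of all genes tested 10.6% rose and 8.79% fell by at least 2-fold under ABA, and 12.4% and 9.72% did under PEG. Between PEG and ABA 41 members were higher under PEG and 55 lower (82.8% called, against 74.7% of all genes, of which 39.1% were higher and 35.6% lower), and with library size alone 49 were higher and 45 lower. The median log2 fold change of the members was -0.02 under ABA and -0.20 under PEG, beside 0.00 for all genes tested in both.

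**Figure D1:**
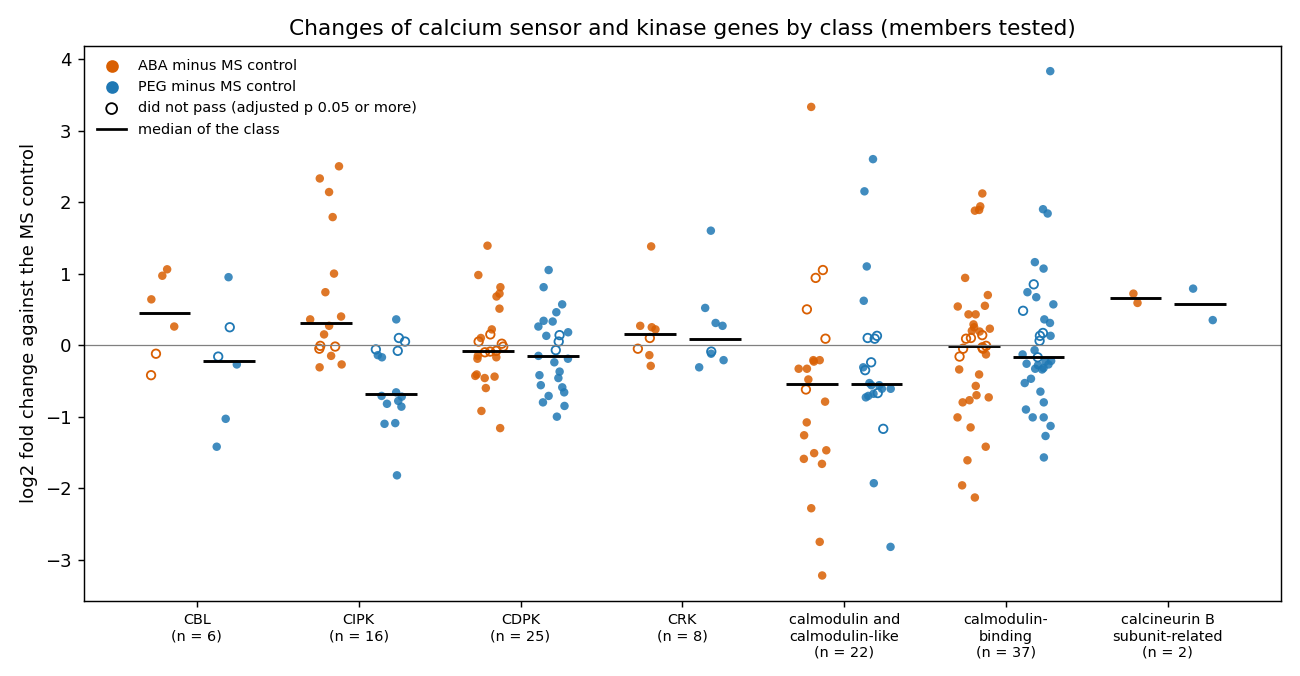
Log2 fold change against the MS control (vertical axis, edgeR) of the 116 members tested, by class, with ABA in orange and PEG in blue. Each point is a gene, filled where the adjusted p was under 0.05 and open where it was not, and bars mark the class median. CIPKs lie mostly above 0 under ABA (median 0.32) and below it under PEG (median -0.68), whereas calmodulins and CMLs lie mostly below 0 under both (median -0.55 in each).

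Most CBL sensors rose under ABA, led by CBL10. Under ABA 4 of 6 rose and none fell (median log2 fold change 0.45), where 32.9% of all genes tested rose and 33.4% fell. Under PEG 1 rose and 3 fell (median -0.22), or 2 and 3 with library size alone, where 35.6% and 35.1% of all genes did. In Arabidopsis CBL10 recruits the kinase SOS2 in shoots under salt. The CBL10 copy Manes.11G027500, on chromosome 11 from 2384093 to 2386750 of the cassava genome v6.1, had 108, 106 and 111 FPKM in the MS control, 213, 224 and 216 FPKM under ABA and 44.9, 42.5 and 46.4 FPKM under PEG. It made up 51.1% of the CBL sum in the MS control and 62.6% under ABA. The 3 groups did not overlap, with log2 fold changes of 1.06 (standard error 0.04, edgeR adjusted p = 3.87e-10) under ABA and -1.42 (standard error 0.04, edgeR adjusted p = 3.65e-11) under PEG. The other CBL10 copy, Manes.16G079800, lay lower and showed the same order, with 9.81, 11.1 and 10.8 FPKM in the MS control, 15.9, 16.3 and 15.3 FPKM under ABA and 6.21, 6.31 and 4.42 FPKM under PEG. Its changes were 0.64 and -1.03 on the log2 scale, and both passed.

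CBL9, which with CBL1 activates CIPK23 in Arabidopsis, rose under ABA and did not pass under PEG. Manes.15G174700 had 14.4, 16.7 and 16.9 FPKM in the MS control, 35.4, 24.9 and 29.9 FPKM under ABA and 19.2, 22.2 and 21.3 FPKM under PEG. The ABA libraries lay above both other groups, at 0.97 (standard error 0.13, edgeR adjusted p = 5.10e-05) on the log2 scale, while its PEG value of 0.25 did not pass (edgeR adjusted p = 0.117). Against ABA it was lower under PEG by the same test (-0.72). The CBL1 copy Manes.17G024300 passed neither test, at 17.9, 15.7 and 17.5 FPKM on average in the 3 groups. CBL3, a sensor of the vacuolar membrane in Arabidopsis, had the second highest CBL level: Manes.01G003700 had 59.9, 59.9 and 57 FPKM in the MS control, 68.6, 65.9 and 68.5 FPKM under ABA and 52.7, 53.8 and 54.3 FPKM under PEG, a small rise (0.26) and a small fall (-0.27). The CBL8 copy Manes.02G008700 lay at 2.08 FPKM or less in every library and rose under PEG (log2 fold change 0.95), with its PEG and MS control ranges overlapping in FPKM.

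The CIPK kinases mostly rose under ABA and mostly fell under PEG. Under ABA 10 of 16 rose and 3 fell, where 32.9% and 33.4% of all genes tested did, and under PEG 1 rose and 11 fell, where 35.6% and 35.1% did. Compared with ABA 13 of the 16 were lower under PEG and 3 higher (median log2 fold change -0.80), where 35.6% and 39.1% of all genes were. Of the 13, 7 were at least 2-fold lower (12.9% of all genes tested were). With library size alone the counts were 10 and 4 under ABA, 3 and 8 under PEG, and 3 and 10 between PEG and ABA. Their summed level was 547 ± 9.52 FPKM in the MS control, 720 ± 6.04 FPKM under ABA and 508 ± 9.26 FPKM under PEG (SD, n = 3).

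Of 5 CIPK25 copies 3 had enough reads to test, and these 3 rose under ABA and fell under PEG. The others, Manes.06G003900 and Manes.15G058000, had no read in any library. Manes.16G128800, on chromosome 16 from 27977501 to 27979657, had 79.3, 79.8 and 78.5 FPKM in the MS control, 124, 126 and 130.5 FPKM under ABA and 24.3, 24.2 and 25.3 FPKM under PEG. It was the most abundant CIPK under ABA, with 17.6% of the class sum, and its log2 fold changes were 0.74 (standard error 0.03, edgeR adjusted p = 1.76e-09) and -1.82 (standard error 0.03, edgeR adjusted p = 1.10e-12). Manes.11G066400 had 13.9, 13.3 and 12.1 FPKM in the MS control, 56.6, 54.6 and 55.1 FPKM under ABA and 8.75, 9.75 and 8.72 FPKM under PEG. Here the rise was the larger of the changes, at 2.14 (standard error 0.06, edgeR adjusted p = 6.45e-11), against -0.66 under PEG. Manes.03G009600 had 1.44, 1.8 and 1.41 FPKM in the MS control, 8.5, 8.66 and 8.07 FPKM under ABA and 0.965, 1.04 and 1.08 FPKM under PEG, with 2.5 and -0.72 on the log2 scale. The tested copies moved in the same directions from levels that differed widely, and in none of them did any 2 groups overlap.

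CIPK1, which pairs with CBL1 and CBL9 in Arabidopsis, moved the same way. Manes.03G211800 had 16.2, 15.2 and 15.8 FPKM in the MS control, 52.6, 52.9 and 50.7 FPKM under ABA and 11, 9.23 and 11.5 FPKM under PEG, and its log2 fold changes were 1.79 (standard error 0.07, edgeR adjusted p = 7.32e-10) and -0.71 (standard error 0.07, edgeR adjusted p = 2.90e-06). CIPK23 phosphorylates the potassium channel AKT1 and a nitrate transporter in Arabidopsis roots. Its copy Manes.15G124600 had 19.1, 19 and 19.1 FPKM in the MS control, 36.8, 36.8 and 36.4 FPKM under ABA and 11.2, 11.2 and 13.2 FPKM under PEG, and the groups were apart (1.0 under ABA and -0.82 under PEG). The more abundant CIPK23 copy Manes.17G073900 had 85.4, 80.2 and 85.8 FPKM in the MS control, 104, 106 and 107 FPKM under ABA and 84.2, 82.5 and 82.8 FPKM under PEG. That copy rose by less (0.40), and its PEG value of -0.14 passed the test on the TMM scale while its FPKM ranges overlapped.

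CIPK12 had a copy of low level that rose under ABA. Manes.17G057200, on chromosome 17 from 19562806 to 19564239, had 1.45, 0.891 and 1.24 FPKM in the MS control, 6.25, 5.47 and 5.47 FPKM under ABA and 0.659, 0.734 and 0.88 FPKM under PEG, or 29, 19 and 29 reads in the MS control, 133, 123 and 117 reads under ABA and 16, 18 and 20 reads under PEG. Its log2 fold changes were 2.33 (standard error 0.17, edgeR adjusted p = 1.85e-07) under ABA and -0.78 (standard error 0.23, edgeR adjusted p = 0.00863) under PEG. Manes.17G057100, described as CIPK20, lies 2241 bases away and had no read in any library. The second CIPK12 copy, Manes.16G041200, had 14.1, 13.8 and 14 FPKM in the MS control, 11, 10.9 and 11.4 FPKM under ABA and 16.3, 16.4 and 16.7 FPKM under PEG and fell slightly under ABA (-0.27), so the copies called under ABA had opposite signs.

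A CIPK7 copy also rose under ABA and fell under PEG, whereas CIPK3 behaved otherwise. The CIPK7 copy Manes.15G035200 had 13.3, 13.4 and 12.9 FPKM in the MS control, 16.2, 16.5 and 15.8 FPKM under ABA and 5.88, 7.16 and 7.19 FPKM under PEG, a rise of 0.36 under ABA and a fall under PEG of -1.1 (standard error 0.07, edgeR adjusted p = 6.59e-08). Its partner copy Manes.03G170300 fell under both (-0.31 and -1.09). CIPK3, which acts in ABA and cold responses in Arabidopsis, held the single CIPK that rose under PEG: Manes.01G175100 had 76.8, 74.3 and 76.9 FPKM in the MS control, 70.9, 71.2 and 68.4 FPKM under ABA and 110.2, 104 and 107 FPKM under PEG, with -0.05 under ABA, which did not pass, and 0.36 (standard error 0.03, edgeR adjusted p = 5.25e-07) under PEG. The other CIPK3 copy, Manes.02G133600, had 49.6, 42.8 and 56.4 FPKM on average. Both CIPK9 copies were abundant and changed little: Manes.01G241100 had 90.6, 84.4 and 88.1 FPKM in the MS control, 92.4, 93.7 and 93 FPKM under ABA and 92.7, 89 and 95.2 FPKM under PEG, and Manes.05G017700 rose by 0.27 under ABA.

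**Figure D2:**
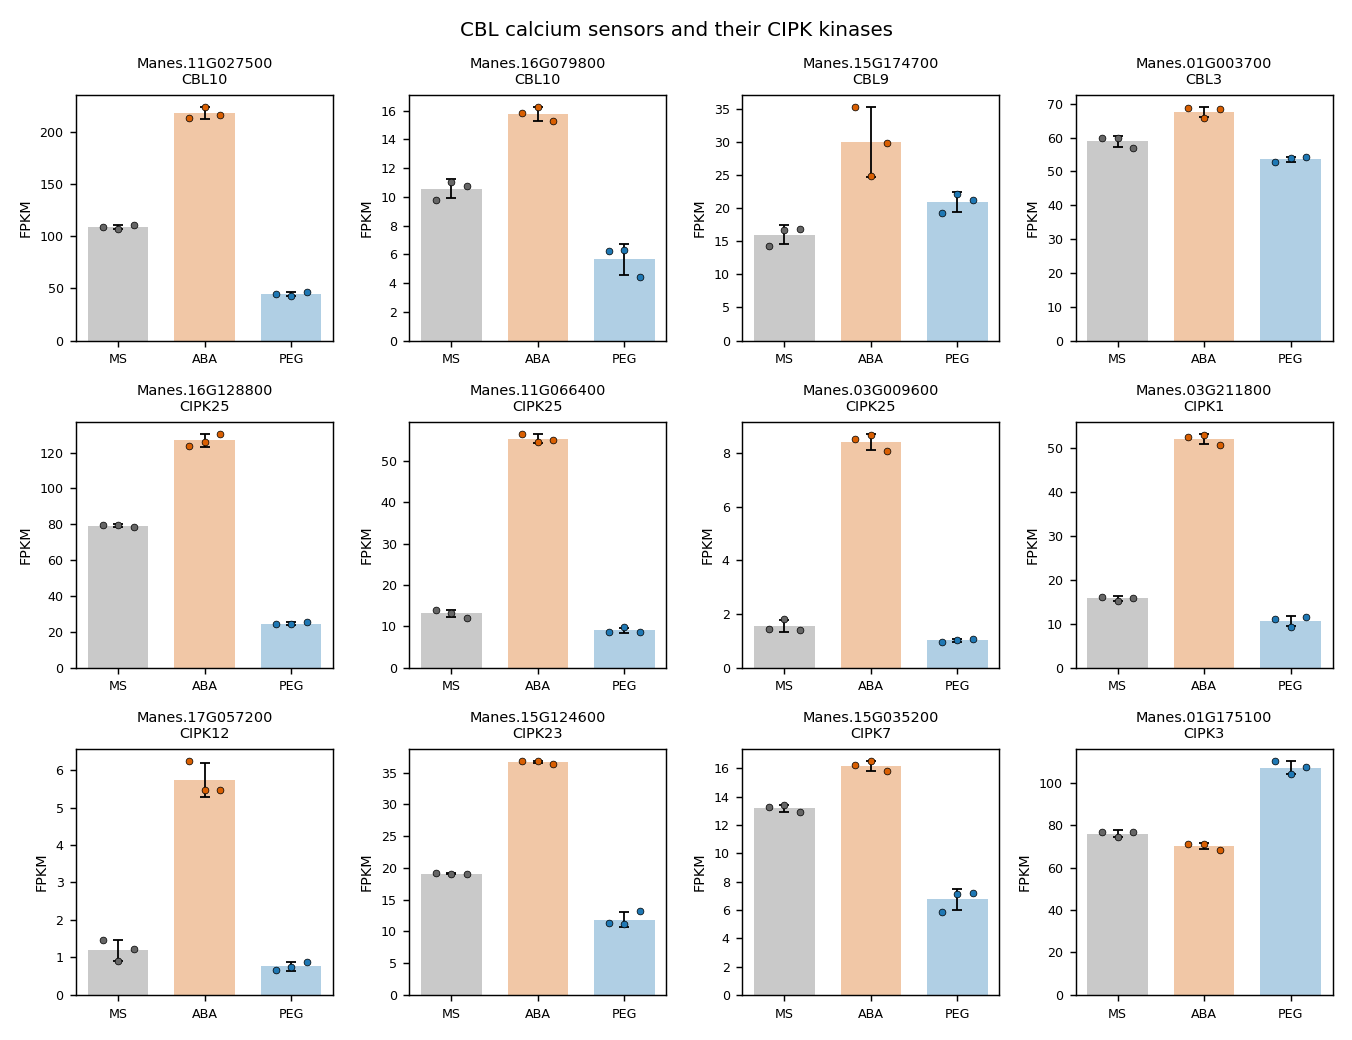
FPKM (vertical axis, each panel with its own scale from 0) of 4 CBL and 8 CIPK genes in the MS control, ABA and PEG libraries. Points are single libraries, bars the mean and error bars the SD of 3. CBL10, the CIPK25 copies, CIPK1, CIPK12 and CIPK23 Manes.15G124600 are highest in every ABA library and lowest in the PEG libraries, while CIPK3 Manes.01G175100 is highest under PEG.

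CDPKs changed in both directions. Their median size on the log2 scale was 0.41 under ABA and 0.42 under PEG, near the 0.41 and 0.45 of all genes tested. Of 25 tested 8 rose and 10 fell under ABA (median log2 fold change -0.08), and 9 rose and 13 fell under PEG (median -0.15), or 10 and 10 with library size alone. Rising CDPKs were 32.0% and 36.0% of those tested, close to the 32.9% and 35.6% of all genes, and falling CDPKs were 40.0% and 52.0%, against 33.4% and 35.1%. Their summed level stayed near 600 FPKM in the MS control and ABA libraries (598.8 to 604 and 596 to 598) and was 564 to 573.5 under PEG. The largest rise in both comparisons with the MS control was CDPK29. Manes.18G009700, on chromosome 18 from 837330 to 841104, had 3.5, 3.42 and 2.87 FPKM in the MS control, 7.98, 7.45 and 9.11 FPKM under ABA and 7, 7.69 and 7.51 FPKM under PEG. Both treated groups lay above every MS control library, at 1.39 (standard error 0.11, edgeR adjusted p = 4.74e-07) and 1.05 (standard error 0.11, edgeR adjusted p = 4.62e-06).

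CDPK32 phosphorylates the ABA-responsive transcription factor ABF4 in Arabidopsis. Its copy Manes.09G024500 had 20.4, 22.2 and 20.9 FPKM in the MS control, 40.05, 39.9 and 39.7 FPKM under ABA and 19.6, 20.1 and 21.5 FPKM under PEG. The ABA libraries stood alone, at 0.98 (standard error 0.05, edgeR adjusted p = 3.81e-09), and the PEG value was -0.19. The second CDPK32 copy, Manes.08G049500, had 30.1, 33.3 and 32.1 FPKM in the MS control, 33.7, 37.7 and 35.2 FPKM under ABA and 21.1, 22.9 and 22.2 FPKM under PEG, with 0.22 under ABA and -0.66 under PEG. A gene described only as CDPK family (Manes.05G191100, nearest Arabidopsis gene AT5G24430) had 18.8, 18.5 and 19.1 FPKM in the MS control, 29.2, 29.8 and 30.4 FPKM under ABA and 12.4, 13.2 and 12.1 FPKM under PEG. It rose under ABA (0.72, standard error 0.05, edgeR adjusted p = 6.27e-08) and fell under PEG by a like size (-0.71).

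The reverse order was seen in CDPK20. Manes.08G037300 had 9.52, 8.71 and 8.94 FPKM in the MS control, 4.35, 4.5 and 4.84 FPKM under ABA and 17.8, 16.8 and 17.8 FPKM under PEG. It fell under ABA by log2 fold change, at -0.92 (standard error 0.06, edgeR adjusted p = 9.87e-08), and rose under PEG, at 0.81 (standard error 0.06, edgeR adjusted p = 1.10e-07). A pair of other CDPK20 copies, Manes.09G041700 and Manes.09G041800, lie 3838 bases apart and were among the members with too few reads to test.

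The 4 CDPK2 copies (nearest Arabidopsis gene AT1G35670, also known as CPK11) split. Manes.18G101000 had 41.7, 37.6 and 40.7 FPKM in the MS control, 54.7, 54.4 and 54.8 FPKM under ABA and 28.2, 29.8 and 29.7 FPKM under PEG, and rose under ABA (0.51) and fell under PEG (-0.59). Manes.13G153100 had 25.7, 26.1 and 24.7 FPKM in the MS control, 17.9, 17 and 19.4 FPKM under ABA and 42, 40.9 and 41.8 FPKM under PEG, with the opposite signs (-0.43 and 0.57). Groups did not overlap in either gene, and the copies crossed: the first was more abundant in the MS control and under ABA, the second under PEG. Manes.02G192200 and Manes.12G081500 rose under both, with 0.68 and 0.81 under ABA and 0.46 and 0.18 under PEG.

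Several abundant CDPKs fell under both treatments. The highest mean level belonged to a CDPK family gene whose nearest Arabidopsis gene is AT2G17290 (CPK6, a kinase of guard cell ABA responses there). This gene, Manes.15G114600, had 80.8, 79.2 and 81.6 FPKM in the MS control, 57.1, 54.8 and 58.6 FPKM under ABA and 50.4, 51.8 and 49.6 FPKM under PEG, with -0.44 (standard error 0.03, edgeR adjusted p = 2.88e-07) and -0.80 (standard error 0.03, edgeR adjusted p = 1.15e-09). CDPK1 (Manes.14G073800) had 30.7, 31.5 and 32.7 FPKM in the MS control, 20.5, 19.4 and 20.1 FPKM under ABA and 17.9, 17.5 and 16.6 FPKM under PEG, and fell by a like order (-0.60 and -1.0). Calmodulin-domain protein kinase 9 (Manes.15G071600) had 61.8, 58.3 and 60.3 FPKM in the MS control, 61.1, 62.7 and 61.5 FPKM under ABA and 45, 43.3 and 45.9 FPKM under PEG. It was lower only in the PEG libraries (-0.56), and its ABA value of 0.10 passed while its ABA and MS control libraries overlapped in FPKM. The largest falls under ABA included a low gene, Manes.08G036300, described as a calmodulin-domain protein kinase, with 1.22, 1.54 and 1.56 FPKM in the MS control, 0.629, 0.706 and 0.511 FPKM under ABA and 0.879, 0.85 and 0.895 FPKM under PEG (-1.16 and -0.85). CDPK21, which activates the guard cell anion channel SLAC1 in Arabidopsis, changed little: Manes.16G007500 fell by 0.15 under ABA and by 0.37 under PEG on the log2 scale.

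The summed level of the CRKs was higher under PEG, at 182.9 to 187.6 FPKM against 156 to 158 in the MS control and 156 to 159 under ABA. Of 8 tested 4 rose and 2 fell under ABA, and 4 rose and 3 fell under PEG (4 and 1 with library size alone), with all genes at the shares given above for the CDPKs. Manes.13G126000, the most abundant CRK, had 40.5, 40.6 and 40.7 FPKM in the MS control, 38.4, 37.8 and 36.5 FPKM under ABA and 54.8, 53.7 and 52.5 FPKM under PEG. Only the PEG libraries stood apart upward, at 0.27 (standard error 0.03, edgeR adjusted p = 1.91e-05), and its ABA value of -0.05 did not pass. Manes.12G102000, another copy of the same Arabidopsis gene, had 17.3, 15.7 and 17.7 FPKM in the MS control, 17.8, 16.6 and 17.6 FPKM under ABA and 27.2, 27.1 and 25.6 FPKM under PEG and rose under PEG (0.52). Another copy, Manes.15G142700, had 26.9, 23.4 and 27.1 FPKM on average, and its fall under PEG (-0.12) turned to 0.01 with library size alone. CRK1 Manes.08G060300 rose under ABA (0.22) and fell under PEG (-0.21), and CRK3 Manes.05G018400 rose under both (0.27 and 0.31). Their copies differed: CRK1 Manes.09G003500 fell under ABA (-0.29), and CRK3 Manes.01G241800 rose under ABA and fell under PEG (0.25 and -0.31). The 2 genes described as calcineurin B subunit-related rose under both treatments, and the more abundant, Manes.05G041800, had 15.8, 16.2 and 18.1 FPKM in the MS control, 22.2, 24.7 and 25.2 FPKM under ABA and 24.7, 22.4 and 23 FPKM under PEG. The log2 fold changes were 0.59 and 0.35 in this gene and 0.72 and 0.79 in the other, Manes.01G263400.

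**Figure D3:**
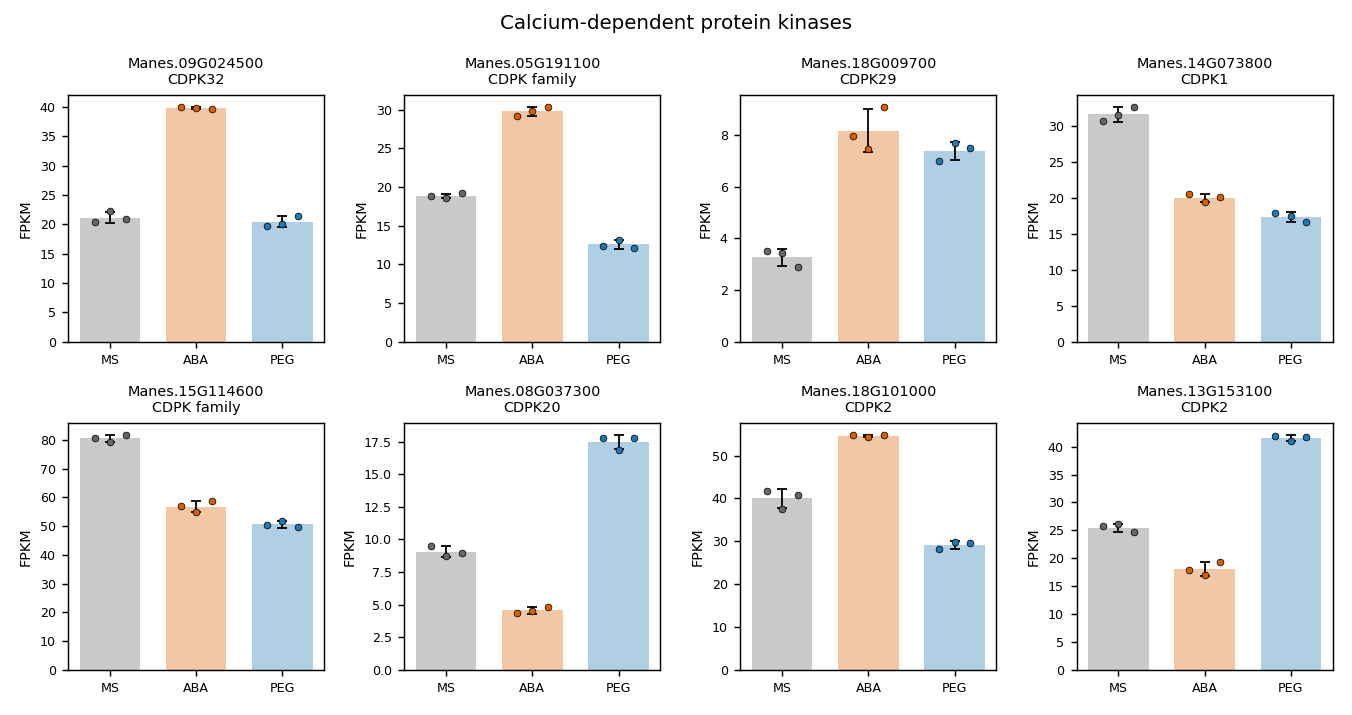
FPKM (vertical axis, each panel with its own scale from 0) of 8 CDPK genes in the MS control, ABA and PEG libraries, with points for single libraries, bars for the mean and error bars for the SD of 3. The first pair of panels is highest under ABA, CDPK29 is higher under both treatments, CDPK1 and Manes.15G114600 are lower under both, and CDPK20 and CDPK2 Manes.13G153100 are lowest under ABA and highest under PEG.

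Calmodulins and CMLs were mostly lower in the treated libraries. Under ABA 16 of 22 fell and 1 rose, where 33.4% and 32.9% of all genes tested did (median log2 fold change -0.55), and 9 of the falls were at least 2-fold. Under PEG 11 fell and 4 rose (9 and 5 with library size alone), where 35.1% and 35.6% of all genes did. Between PEG and ABA 12 were higher under PEG and 5 lower, where 39.1% and 35.6% of all genes were. The summed level was 951.5 ± 7.84 FPKM in the MS control, 728 ± 12.98 FPKM under ABA and 758.5 ± 6.95 FPKM under PEG (SD, n = 3).

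The sum is set by 5 copies of calmodulin 5 (nearest Arabidopsis gene AT2G27030), which held 84.2% of it in the MS control. Manes.01G002400, on chromosome 1 from 507026 to 509429, was the most abundant of all members, with 253, 260.2 and 266 FPKM in the MS control, 199, 198 and 197 FPKM under ABA and 241, 224 and 223 FPKM under PEG. Both treated groups lay below the MS control, at -0.33 (standard error 0.03, edgeR adjusted p = 4.88e-06) and -0.31 (standard error 0.03, edgeR adjusted p = 6.72e-06). Manes.09G000800 had 207, 202 and 219 FPKM in the MS control, 172, 162 and 177 FPKM under ABA and 138, 137 and 155 FPKM under PEG, and Manes.05G196400 had 162, 159.9 and 151 FPKM in the MS control, 129, 131 and 129.9 FPKM under ABA and 106, 103 and 103 FPKM under PEG. Like Manes.09G073600 these fell more under PEG (-0.68, -0.73 and -0.61) than under ABA (-0.23, -0.21 and -0.21). The fifth copy, Manes.08G067400, passed neither test at 17.6 FPKM in the MS control. Calmodulin genes can be nearly identical, and the sources used here do not state how reads shared between copies were counted, so the split between these copies is uncertain.

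All 4 CML41 copies fell under ABA. In Arabidopsis CML41 sits at plasmodesmata and acts in their closure during immune responses. Manes.13G135300 had 18.8, 24.8 and 20.9 FPKM in the MS control, 2.7, 4.89 and 5.03 FPKM under ABA and 13.6, 19.6 and 14.7 FPKM under PEG, and its neighbour Manes.13G135200, 1010 bases away on chromosome 13, had 16.8, 17 and 15.7 FPKM in the MS control, 4.51, 6.41 and 4.72 FPKM under ABA and 12, 11.4 and 14.2 FPKM under PEG. The ABA libraries of both lay below every other library, with log2 fold changes of -2.28 (standard error 0.22, edgeR adjusted p = 2.46e-06) and -1.59 (standard error 0.15, edgeR adjusted p = 1.65e-06). Their PEG values were -0.56 and -0.53. Manes.12G099300 had 1.55, 1.61 and 2.15 FPKM in the MS control, 0.0766, 0.0725 and 0.382 FPKM under ABA and 1.61, 1.33 and 1.65 FPKM under PEG, or 19, 21 and 31 reads in the MS control, 1, 1 and 5 reads under ABA and 24, 20 and 23 reads under PEG, so its change of -3.22 under ABA rests on few reads. Manes.18G030600 fell by 1.08 on the log2 scale under ABA, and neither of these last copies passed under PEG.

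CML11 and CML23 gave further falls. The CML11 copy Manes.15G033800 had 15.8, 16.8 and 18.1 FPKM in the MS control, 5.13, 5.62 and 4.57 FPKM under ABA and 11.1, 11 and 12 FPKM under PEG, and fell under ABA (-1.66, standard error 0.11, edgeR adjusted p = 9.79e-08) and less under PEG (-0.71). A second CML11 copy, Manes.09G153600, had 12, 13 and 12 reads in the MS control, 3, 0 and 2 reads under ABA and 4, 1 and 1 reads under PEG, with -2.75 and -2.82 on the log2 scale. The CML23 copy Manes.01G116700 had 59.99, 57.9 and 54.2 FPKM in the MS control, 30.8, 32.3 and 32.3 FPKM under ABA and 45.5, 42.7 and 39.9 FPKM under PEG. It fell under both (-0.79 and -0.56), whereas its partner copy Manes.02G075400 fell under ABA and rose under PEG (-0.48 and 0.62).

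Rises in this class were few, 1 under ABA and 4 under PEG. Besides the CML23 copy above, another CML11 copy, Manes.03G171800, had 3, 10 and 10 reads in the MS control, 11, 15 and 20 reads under ABA and 14, 19 and 27 reads under PEG, and rose under PEG (log2 fold change 1.1). CML38, which responds to low oxygen in Arabidopsis, had 1 copy that rose in each treatment and another, Manes.15G159100, with too few reads to test. Manes.05G173000, on chromosome 5 from 23901713 to 23902018, had 3.29, 3.29 and 3.99 FPKM in the MS control, 4.18, 5 and 5.26 FPKM under ABA and 23, 23.5 and 24.8 FPKM under PEG. It rose under PEG (2.6, standard error 0.15, edgeR adjusted p = 2.37e-08), and its ABA value of 0.50 did not pass. Manes.17G104400 had 0, 4 and 2 reads in the MS control, 27, 22 and 12 reads under ABA and 1, 2 and 0 reads under PEG, and rose under ABA (3.33, standard error 0.60, edgeR adjusted p = 0.000455), with a PEG value of -1.17 that did not pass. Between PEG and ABA both copies passed the test, with opposite signs. CML42, which acts in trichome branching in Arabidopsis, also had copies that differed: Manes.09G120700 had 2.19, 2.73 and 1.71 FPKM in the MS control, 1.88, 1.38 and 0.851 FPKM under ABA and 10.2, 10.1 and 11.8 FPKM under PEG and rose under PEG (2.15, standard error 0.20, edgeR adjusted p = 1.74e-06). The other, Manes.08G167400, had 3.38, 3.99 and 3.22 FPKM in the MS control, 1.27, 1.02 and 1.26 FPKM under ABA and 2.62, 2.64 and 2.32 FPKM under PEG and fell under both (-1.51 and -0.61).

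CML37 shows how 1 library can set a call. Manes.05G113200 had 1.6, 13.4 and 1.1 FPKM in the MS control, 9.15, 10.2 and 10.2 FPKM under ABA and 1.25, 1.92 and 1.41 FPKM under PEG. MS control replicate 2 lay above every ABA library and far above the other control libraries. With it the ABA value was 0.94 (edgeR adjusted p = 0.192) and the PEG value -1.93 (edgeR adjusted p = 0.044). Without it the ABA value was 2.94 (edgeR adjusted p = 4.72e-07) and the PEG value 0.07 (edgeR adjusted p = 0.835). The fall under PEG also missed the threshold when any of the ABA or PEG libraries was left out, with values of -2.14 to -1.80.

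**Figure D4:**
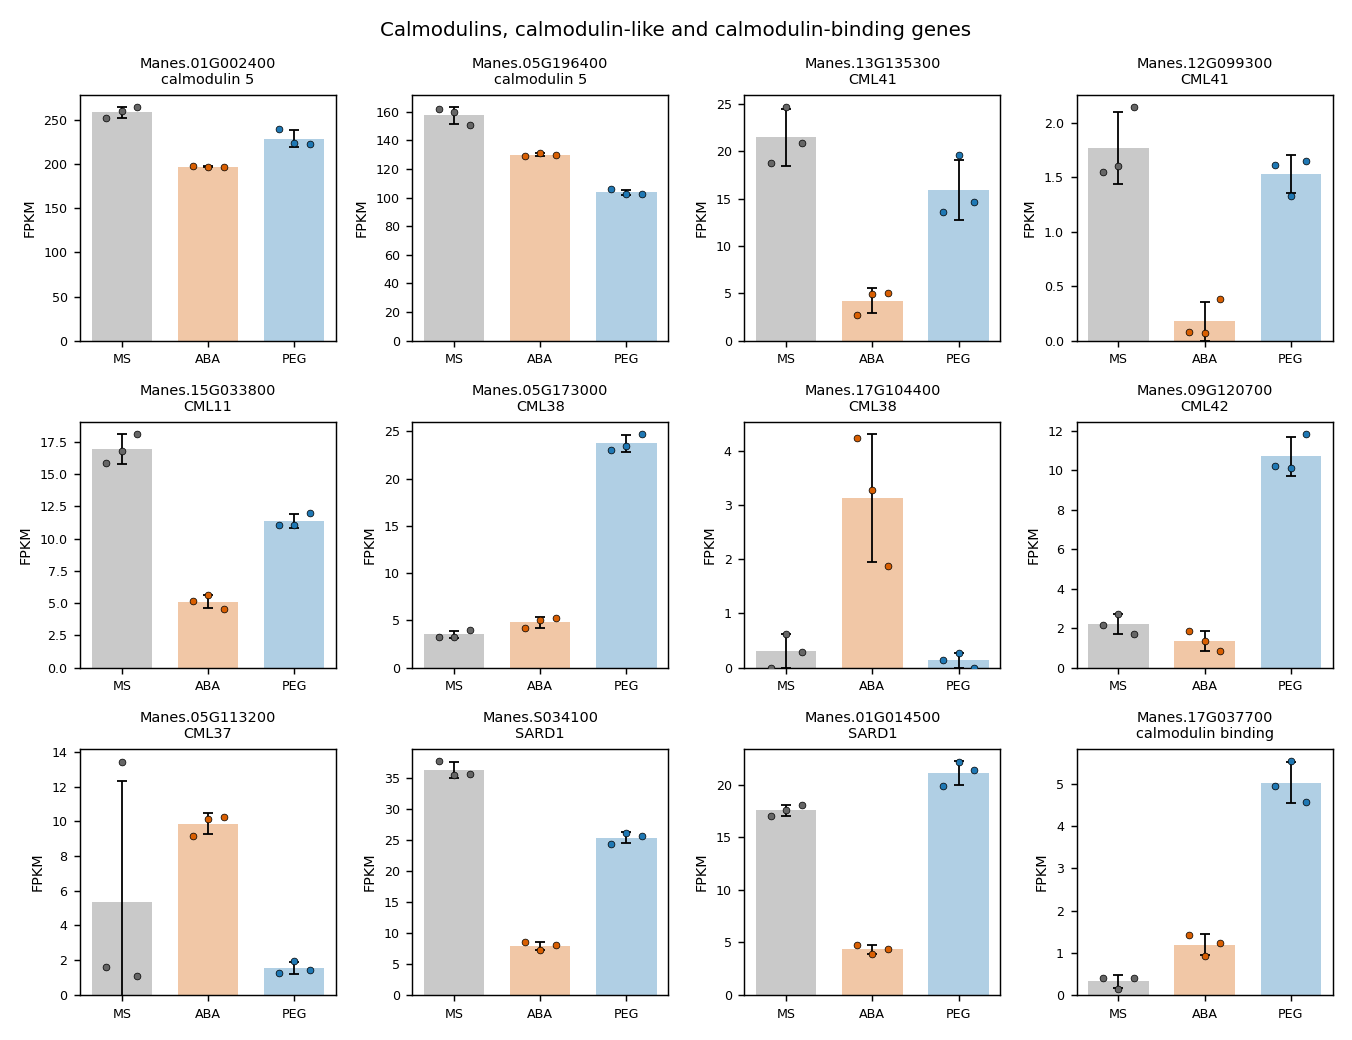
FPKM (vertical axis, each panel with its own scale from 0) of 9 calmodulin and CML genes and 3 calmodulin-binding genes in the MS control, ABA and PEG libraries, with points for single libraries, bars for the mean and error bars for the SD of 3. CML41, CML11 and the SARD1 copies are lowest in every ABA library, the CML38 copies peak in different treatments, and the CML37 control libraries hold 1 value of 13.4 FPKM beside 1.6 and 1.1 FPKM.

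Among the calmodulin-binding proteins 15 of 37 rose and 14 fell under ABA, and 11 rose and 20 fell under PEG (13 and 13 with library size alone). These are 40.5% and 37.8% of those tested under ABA, against 32.9% and 33.4% of all genes, and 29.7% and 54.1% under PEG, against 35.6% and 35.1%. The largest falls under ABA were copies of Arabidopsis SARD1 (AT1G73805), a CBP60-family transcription factor that promotes salicylic acid synthesis in immunity. Manes.S034100, on a scaffold that is placed on no chromosome, had 37.8, 35.5 and 35.7 FPKM in the MS control, 8.5, 7.23 and 8.06 FPKM under ABA and 24.4, 26.1 and 25.7 FPKM under PEG. Manes.01G014500 had 17, 17.6 and 18.1 FPKM in the MS control, 4.73, 3.92 and 4.35 FPKM under ABA and 19.9, 22.1 and 21.4 FPKM under PEG. The ABA libraries lay well below all others in both, with -2.13 (standard error 0.06, edgeR adjusted p = 7.26e-11) and -1.96 (standard error 0.08, edgeR adjusted p = 1.56e-09). Under PEG the values were -0.65, which passed, and 0.13, which did not.

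Other CBP60-family genes varied. Of 3 copies of AT5G57580, Manes.06G023700 was the most abundant with 74.2, 71 and 75.1 FPKM in the MS control, 82.3, 82.3 and 78.5 FPKM under ABA and 76.8, 77 and 75.8 FPKM under PEG, and its small fall under PEG (-0.07 on the TMM scale) changed sign with library size alone (0.06), as its FPKM values do. Manes.16G020900 had 25.6, 28 and 28.7 FPKM in the MS control, 8.97, 10.4 and 10.2 FPKM under ABA and 23.8, 25.4 and 23.2 FPKM under PEG and fell under ABA (-1.42, standard error 0.07, edgeR adjusted p = 5.20e-09). The third, Manes.17G039500, fell under ABA and rose under PEG (-0.57 and 0.74). Manes.06G038400 (nearest Arabidopsis gene AT2G24300) had 64.7, 65.1 and 67.4 FPKM in the MS control, 49.3, 51.2 and 48.9 FPKM under ABA and 36.5, 35.2 and 35.5 FPKM under PEG, and fell most under PEG (-1.01, standard error 0.03, edgeR adjusted p = 1.64e-10). Its low copy Manes.14G141700 fell further (-1.57 under PEG). Manes.06G101400 had 3.85, 3.47 and 3.52 FPKM in the MS control, 4.92, 4.55 and 4.48 FPKM under ABA and 1.68, 1.53 and 1.7 FPKM under PEG, with a rise under ABA (0.43) and a fall under PEG (-1.27, standard error 0.09, edgeR adjusted p = 9.47e-08).

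The largest rise of any member under PEG was Manes.17G037700 (nearest Arabidopsis gene AT4G21820, described as calmodulin binding). It had 0.408, 0.148 and 0.404 FPKM in the MS control, 1.42, 0.925 and 1.23 FPKM under ABA and 4.96, 5.55 and 4.58 FPKM under PEG. Every PEG library lay above every ABA library, and these lay above the MS control, with log2 fold changes of 1.94 (standard error 0.28, edgeR adjusted p = 8.16e-05) and 3.83 (standard error 0.24, edgeR adjusted p = 4.45e-08). Manes.11G002800, a gene described as plant calmodulin-binding protein-related, had 0.883, 0.803 and 1.04 FPKM in the MS control, 4.07, 3.7 and 3.67 FPKM under ABA and 3.69, 3.35 and 3.71 FPKM under PEG, and rose by a similar amount in both (2.12 and 1.84). The other copy of the same Arabidopsis gene, Manes.04G164600, was the most abundant calmodulin-binding member at 143, 139.6 and 148 FPKM in the MS control, 134, 131 and 133 FPKM under ABA and 126, 124 and 124 FPKM under PEG. It changed little, with -0.05 (not passed) and -0.34.

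The pair of genes whose description names an IQ motif, the short helix that calmodulin grips, rose under both treatments. Sequences of other members were not searched for the motif. Manes.08G023400 had 1.38, 1.99 and 1.38 FPKM in the MS control, 2.59, 1.96 and 2.1 FPKM under ABA and 6.3, 7.1 and 6.1 FPKM under PEG and rose under ABA (0.55) and under PEG (1.9, standard error 0.16, edgeR adjusted p = 5.89e-07). The ABA and MS control ranges of Manes.08G023400 overlapped in FPKM. Manes.09G059000 also rose under both (0.94 and 1.16). Manes.06G088100 was the single member whose changes against the MS control passed with opposite signs and a size of at least 1 log2 unit each, other than the CBL10 copy Manes.11G027500. It had 1.25, 1.87 and 1.32 FPKM in the MS control, 0.64, 0.836 and 0.621 FPKM under ABA and 3.55, 3.53 and 3.11 FPKM under PEG, with -1.01 (standard error 0.18, edgeR adjusted p = 0.00047) under ABA and 1.07 (standard error 0.15, edgeR adjusted p = 6.05e-05) under PEG.

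Genes described as calmodulin-binding transcription activators (CAMTA), which control cold and defence genes in Arabidopsis, changed little. Manes.06G012800 had 55, 52.9 and 55 FPKM in the MS control, 60.6, 59.4 and 58.3 FPKM under ABA and 49.8, 49.2 and 49.5 FPKM under PEG (0.19 and -0.27), and Manes.13G010200 had 40.6, 40.9 and 40.8 FPKM in the MS control, 44.9, 46 and 46.3 FPKM under ABA and 57.7, 56.6 and 57.4 FPKM under PEG (0.23 and 0.36). Manes.12G009600 passed only under PEG (-0.01 and 0.13). Another gene, Manes.03G202200, is described as calmodulin binding and transcription regulators. That gene rose under ABA (0.54, standard error 0.04, edgeR adjusted p = 1.97e-07) and did not pass under PEG (0.06). A kinesin-like calmodulin-binding protein (Manes.01G158800), the copy of the Arabidopsis trichome gene ZWICHEL, had 13.6, 12.6 and 13.6 FPKM in the MS control, 17, 17.1 and 17.2 FPKM under ABA and 24.4, 22.1 and 23 FPKM under PEG. It rose under ABA (0.43) and more under PEG (0.67, standard error 0.04, edgeR adjusted p = 7.60e-08), and the markers of dividing cells, which include other kinesins, rose in the same libraries (their part in it was not tested). A calmodulin-binding receptor-like cytoplasmic kinase, Manes.01G254900, had 17.8, 17.1 and 17.4 FPKM in the MS control, 7.53, 7.44 and 7.63 FPKM under ABA and 16.9, 15.5 and 16.4 FPKM under PEG, and fell mainly under ABA (-1.15 against -0.23).

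Against the MS control 29 members were called in both treatments with opposite signs, 23 of them higher under ABA and lower under PEG and 6 the reverse. Opposite calls were made for 21.5% of all genes tested. Their split by direction was not counted over all genes, so the 23 and 6 cannot be set against it. A further 29 members fell under both and 13 rose under both, and 5 passed neither test. The shares of all genes tested with these last patterns were not counted, so these numbers show neither an excess nor a lack. Both comparisons use the same control libraries. The ABA and MS control ranges were apart in FPKM for 96 of 116 members (70.4% of all genes tested), the PEG and MS control ranges for 90 (74.7%), and the PEG and ABA ranges for 96 (79.1%).

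Copies that share a nearest Arabidopsis gene did not always move together. The same count for genes other than the members was not made. Of 35 Arabidopsis genes with at least 2 tested copies (83 members), under ABA all copies rose for 9, all fell for 6, at least a pair was called with opposite signs for 6, some but not all changed for 12 and none changed for 2. Under PEG these numbers were 4, 10, 10, 9 and 2. CIPK25 and CBL10 stood among those in which all tested copies moved together in both treatments, while CDPK2, CML38 and CIPK12 did not.

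Other genes of calcium signalling were counted from lists of search terms, leaving out the members. Of all genes tested 32.9% rose and 33.4% fell under ABA, and 35.6% and 35.1% did under PEG, and several of the lists lay near these shares. Of 43 tested genes on the calcium entry list 18 rose and 14 fell under ABA, and 23 rose and 12 fell under PEG. The list holds cyclic nucleotide-gated channels and glutamate receptors but also mechanosensitive channels and early-responsive to dehydration (ERD4) proteins. Its counts were not split by kind. Calcium pumps and exchangers, which remove the ion from the cytosol, rose in 9 and fell in 15 of 30 under ABA, and rose in 7 and fell in 13 under PEG. Of 71 other EF-hand proteins 26 rose and 26 fell under ABA and 20 rose and 34 fell under PEG. Annexins, calreticulins and C2-domain proteins rose in 17 and fell in 9 of 32 under ABA, with 14 and 14 under PEG. Known partners and targets, among them NADPH oxidases and potassium transporters, gave 14 rises and 13 falls of 34 under ABA and 13 and 15 under PEG.

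Of the genes of ABA perception and response 13 of 23 rose and 9 fell under ABA, and 3 rose and 15 fell under PEG. Their summed level was 799 to 823 FPKM in the MS control, 2385 to 2410 FPKM under ABA and 569 to 574 FPKM under PEG. The members' own sum moved far less under ABA, from 3223 to 3252 FPKM in the MS control to 3241 to 3255 FPKM. Under PEG it was 2905 to 2938 FPKM. The near-equal ABA sum covers a higher CIPK sum and a lower calmodulin and CML sum, both given above.

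**Figure D5:**
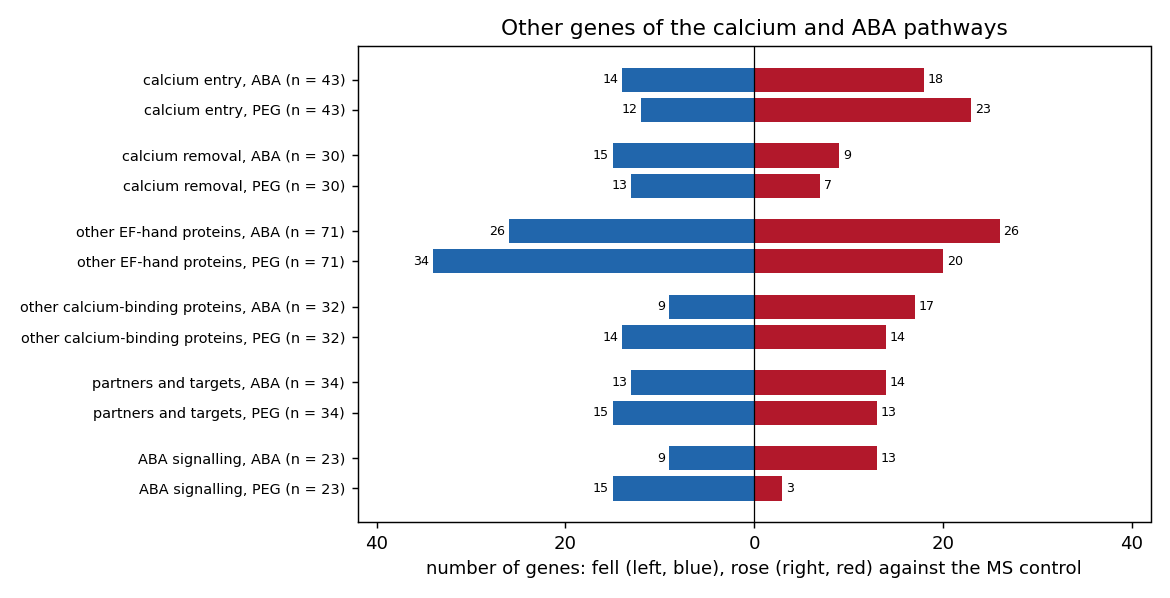
Number of genes (horizontal axis) that fell (blue, left) or rose (red, right) against the MS control in 6 lists of other calcium and ABA pathway genes, with ABA and PEG as separate bars and n the genes tested. ABA signalling genes show 13 rises and 9 falls under ABA and 3 rises and 15 falls under PEG, and other EF-hand proteins show 20 rises and 34 falls under PEG.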

How the data were processed

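RNA-seq of mature cassava leaves gave 3 libraries each for the MS control, ABA and PEG. The authors' deposited table holds raw read counts and FPKM values for 33033 genes of the cassava genome v6.1, with the nearest Arabidopsis gene and its description, and HISAT2 2.0.4 and StringTie 1.3.0 appear in the submitters' processing notes. Counting tool, strand and the treatment of reads shared by several genes are not stated in the sources used here, so near-identical copies and overlapping genes are uncertain.

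Members and lists were chosen with earlier results of these data known. The lists of LEA proteins and cyclins had terms removed (hydroxyproline-rich proteins, cyclin-dependent and cyclin-related proteins) after the table was read. Counts as deposited entered edgeR 4.0.16 under R 4.3.3 (filterByExpr, TMM, quasi-likelihood test, 1 fit of 9 libraries, Benjamini-Hochberg over 23984 genes, threshold 0.05), and FPKM as deposited served for levels. Total counts were 13923803 to 17108746. A standard error is the log2 fold change divided by the square root of the F value. An exact test of 3 against 3 libraries cannot go below p = 0.1 and was not used. On simulated counts the test recovered 75% of 1.5-fold changes for ABA against the MS control and 83.8% for PEG against the MS control, and 76.7% for PEG against ABA, among genes with a mean count of at least 50. Unchanged genes made 8 of 194, 8 of 197 and 21 of 206 calls in these comparisons. Only 200 of the 23984 genes were given a change there, while in the data 66.3%, 70.7% and 74.7% were called. The adjusted p depends on the share of changed genes, and recovery and calls of unchanged genes at the share seen in the data was not tested.

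Named in each class were the 3 members of highest mean FPKM and, for ABA and for PEG against the MS control, the 3 largest rises and falls among members that passed, reached a mean of 1 FPKM in a group and had groups that did not overlap. Added to these were the 5 largest rises and 5 largest falls of PEG against ABA and members with opposite effects of at least 1 log2 unit. Named after their values were seen, outside this rule, were CBL1, CBL8, CIPK1, CIPK23 Manes.15G124600, CIPK9 Manes.05G017700, CIPK20, CIPK25 Manes.06G003900 and Manes.15G058000, CML38 Manes.15G159100, CDPK21, CDPK20 Manes.09G041700 and Manes.09G041800, CDPK2 Manes.02G192200, CDPK32 Manes.08G049500, Manes.05G191100, both CML23 copies, CML42 Manes.08G167400, CML41 Manes.13G135200 and Manes.18G030600, calmodulin 5 Manes.08G067400, Manes.17G039500, Manes.13G010200, Manes.01G158800 and Manes.01G254900. Alternatives were DESeq2 1.42.0 size factors and its Wald test, limma 3.58.1 (voom), library size alone, other filters, a replicate block, fits of 2 groups and leaving out each library. Promoter motifs and protein features were not analysed here.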

Additional observations from a re-analysis of the deposited data

How the results depend on the processing

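The counts of members that rose or fell stayed within 1.5 times under every scaling, filter, test and subset of libraries tried. They left that range where a fold of at least 2 was also asked for, which gave 13 rises and 16 falls for ABA, 10 and 13 for PEG and 19 and 18 for PEG against ABA. Leaving out each library in turn gave 42 to 45 rises and 39 to 45 falls for ABA, 28 to 31 and 53 to 59 for PEG, and 40 to 41 and 49 to 56 for PEG against ABA. For the log2 fold changes of the named members, 2957 of 3061 alternatives kept the call or its absence. A kept call held its direction, but direction was not compared where neither fit made a call. Of the rest 75 lost the call, 25 gained it and 4 turned the sign of a change called in either fit. These 4 were Manes.15G142700 for PEG (0.01 with library size alone), Manes.05G113200 for PEG (0.07 without MS control replicate 2, in a range of -2.44 to 0.07 over the 9 libraries left out) and Manes.06G023700 for PEG (0.06 with library size alone and 0.00 among genes with a mean of at least 5 FPKM). With library size alone the median of all genes moved to -0.07 for ABA, 0.14 for PEG and 0.24 for PEG against ABA, and rising genes made up 61.0% rather than 50.4% of all calls for PEG.

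Replicate numbers did not pair the samples: deviations of same-numbered libraries correlated at -0.0385 to 0.0682 over 9 pairs and those of different numbers at -0.0493 to 0.0268. With the number as a block 45 members rose and 44 fell for ABA, 30 and 59 for PEG and 41 and 53 for PEG against ABA. The depth limits the 18 members with 42 reads or fewer, which were not tested.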
